A study of Mus musculus with 2 samples.

Results

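The 80 genes described here encode the proteins of the cytosolic ribosome, or carry the name of one. They were chosen by symbol. A member begins with Rpl or Rps followed by a digit, is not named as a -ps copy, is not an S6 kinase gene, and had at least 50 unique molecular identifiers (UMIs, tags that count single RNA molecules) over both libraries. Of the 27998 genes in the deposited matrices, 83 symbols met the name rule and 80 of these reached the UMI minimum, 33 named Rps (small subunit, 40S) and 47 named Rpl (large subunit, 60S). Rpl10l, Rpl3l and Rpl39l did not reach it. Not all members are known structural genes: Rps19bp1 encodes a nucleolar protein that binds RPS19, Rpl7l1 a protein of large-subunit precursors, and Rpl6l is annotated as a processed pseudogene.

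The cells were mouse leukaemia cells that carry the MLL-AF9 fusion, an oncogene of acute myeloid leukaemia, and Cas9, a nuclease that a single guide RNA (sgRNA) directs to its target. The Renilla library came from cells with a control sgRNA against Renilla luciferase. In the Jumonji library the sgRNA was aimed at the Jumonji domain of Jmjd1c, a histone demethylase gene. Both cultures were grown with 10% FBS and 10 ng/ml IL-3, a cytokine that supports myeloid progenitors. Each group had 1 library, so no difference below has a replicate check and no p-value is given. Intervals are exact 95% intervals that cover counting error only. The sources used here do not give the share of edited cells, the number of guides, or the strain and age of the animals.

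Ribosomal protein genes supply a pool of short, very abundant mRNAs. Many of these mRNAs begin with a run of pyrimidines, the TOP motif, through which their translation follows mTOR signalling, and ribosome production follows growth and MYC activity. The subunits are put together in the nucleolus with the help of biogenesis factors, and a ribosome takes up each protein in a fixed ratio. In blood, ribosomal proteins are known for Diamond-Blackfan anaemia, in which a gene such as RPS19, RPL5 or RPL11 is damaged, and for 5q- syndrome, in which RPS14 is lost.

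The kept cells, with at least 500 genes and at most 10% mitochondrial UMIs, numbered 608 for Renilla (14418743 UMIs, median 23528 per cell) and 575 for Jumonji (12809661 UMIs, median 22123 per cell). No cell barcode occurred in both libraries. Jmjd1c itself had 2025 Renilla and 1435 Jumonji UMIs, a log2 ratio of -0.33 (-0.42 to -0.23), and a 3′ count does not check a cut elsewhere in the gene. The libraries differed in the markers of maturation. In CPM (UMIs scaled to the library total), 7 measured markers of primary granules, which mark promyelocytes, summed to 5319 for Renilla and 2035 for Jumonji. Monocyte and macrophage markers summed to 837 and 1575, and neutrophil markers to 151 and 937. At least 20% lower were 5 of 7 granule, 0 of 8 monocyte and 1 of 8 neutrophil markers (24.5% of all genes). At least 25% higher were 1, 7 and 7 of them (20.6% of all genes). So were 5 of 5 eosinophil and 2 of 3 megakaryocyte markers, and 2 of 4 mast cell and basophil markers were at least 20% lower. Erythroid markers were near 0 in both (2.98 and 2.03 CPM summed over 5 genes). The part of this shift in the ratios was not tested beyond the values given within states.

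One small-subunit protein is encoded by a family of close copies, and its sequences are shown because 1 of the copies has the largest ratio among the members. Rps27 lies at chr3:90212522-90213651 (minus strand) and Rps27l, a paralogue known as a p53 target, at chr9:66946086-66949516 (plus strand, coordinates of mm10). The coding sequences below come from GENCODE M21 transcripts, and capitals mark the 60 of 252 positions at which they differ.
Rps27: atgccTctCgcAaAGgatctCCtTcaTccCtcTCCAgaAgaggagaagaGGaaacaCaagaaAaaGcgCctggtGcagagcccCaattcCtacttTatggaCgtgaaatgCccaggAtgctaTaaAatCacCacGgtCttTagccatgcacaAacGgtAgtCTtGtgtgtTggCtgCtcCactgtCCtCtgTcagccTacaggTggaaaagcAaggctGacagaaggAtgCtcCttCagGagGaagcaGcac
Rps27l: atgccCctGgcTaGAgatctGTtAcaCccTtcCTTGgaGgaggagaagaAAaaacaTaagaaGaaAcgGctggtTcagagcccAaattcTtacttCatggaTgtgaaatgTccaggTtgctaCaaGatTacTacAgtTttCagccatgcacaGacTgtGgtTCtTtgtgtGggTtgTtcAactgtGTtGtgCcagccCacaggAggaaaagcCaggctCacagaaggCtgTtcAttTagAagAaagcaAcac
A further gene, Rps27rt, is a single-exon copy at chr9:114982366-114982739 (minus strand). Its coding sequence matched that of Rps27 at 252 of 252 positions, and the 57 bases that follow the coding sequence in Rps27 matched at 57 of 57. Reads from these stretches cannot be told apart by sequence. The sources used here do not say how the authors' counting treated such reads, so the split of UMIs between Rps27 and Rps27rt is uncertain.

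In both libraries close to 1 UMI in 3 came from the members, and the share was slightly lower in Jumonji cells. They took 32.2% of all Renilla UMIs (32.16% to 32.20%) and 30.8% of all Jumonji UMIs (30.79% to 30.84%). This is a log2 ratio of -0.06 (-0.064 to -0.060), 4.23% lower for Jumonji. The size depended on the scaling: relative to the total without members and mitochondrially encoded genes the summed ratio was -0.108, and with median-of-ratios scaling, which sets the typical gene to no change, it was -0.0047 and the median member 0.0015. Single cells spanned a wider range: the quartiles were 30.5% and 34.1% in Renilla cells and 28.5% and 33.1% in Jumonji cells, so the distributions overlapped over most of their width. Small-subunit genes had 14.6% and 13.99% of UMIs and large-subunit genes 17.5% and 16.8%, log2 ratios of -0.06 for each. The median member had a ratio of -0.06, and so did the median of the 9964 genes with at least 50 UMIs.

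The members also stayed close to each other. Their ratios ran from -0.39 to 0.80 with a standard deviation of 0.17, against 0.66 over all genes with at least 50 UMIs. A size threshold of 25% higher or 20% lower, the same fold in either direction, was used throughout. By this size 77 of 80 members were inside the threshold. The 1 member past it on the high side was Rps27rt, where 20.6% of all genes were, and the 2 on the low side were Rps2 and Rps19bp1, where 24.5% of all genes were. Without cells of the top maturation band, described below, neither of those 2 was past it (Rps2 -0.27, Rps19bp1 -0.31). Abundant genes of other kinds spread more: of the 298 other genes with at least 10000 UMIs, 105 (35.2%) were past the threshold, and of the 77 members with that many UMIs 1 was. At this depth the counting error alone was small, and the intervals hold no spread between cells or cultures. The counting interval lay below 0 for 44 members, above 0 for 28 and held 0 for 8, and 11 members change sign with median-of-ratios scaling. Under at least 1 of 9 alternative settings 22 members have the opposite sign, so their directions are not firm. Those named here are Rpl3, Rpl6, Rpl7, Rpl9, Rpl10, Rpl23, Rpl38, Rpl41, Rps3, Rps19, Rps25 and Rps27l.

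**Figure D1:**
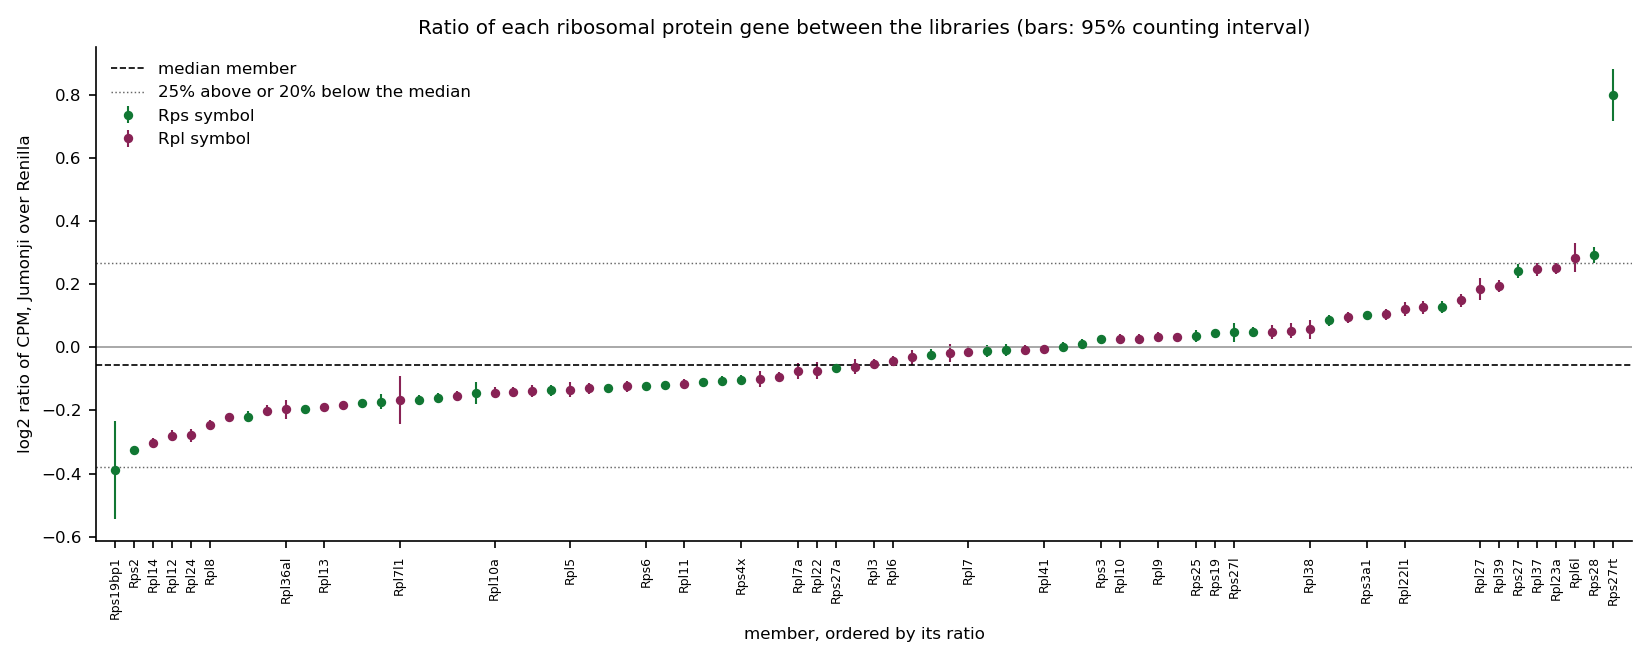
Log2 ratio of CPM, Jumonji over Renilla, for each of the 80 members, ordered from the lowest to the highest with the names of some of them on the axis, with green points for Rps symbols and purple points for Rpl symbols; bars are 95% counting intervals, the dashed line is the median member (-0.06) and dotted lines lie 25% above and 20% below it. The members form a smooth series from -0.39 (Rps19bp1) to 0.29 (Rps28), and Rps27rt stands alone at 0.80.

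Read against the median member, 4 genes departed by the same size with an interval clear of the median. Above it were Rps27rt, Rps28 and Rpl6l, where 20.9% of all genes met this rule. Below it was Rps19bp1, where 16.4% of all genes did. Rps27rt had 2029 Renilla UMIs (141 CPM) and 3137 Jumonji UMIs (245 CPM), a log2 ratio of 0.80 (0.72 to 0.88). Rps27, whose coding sequence it shares, had 30755 and 32297 UMIs and a ratio of 0.24 (0.22 to 0.26), while Rps27l, which differs at many positions, had 18839 and 17291 UMIs and a ratio of 0.05 (0.02 to 0.08). The gene for a small protein near the mRNA exit channel, Rps28, had 22349 and 24326 UMIs and a ratio of 0.29 (0.27 to 0.32). For Rpl6l the UMIs were 7299 and 7893 (ratio 0.28, 0.24 to 0.33), and for Rpl6, the large-subunit gene it is named after, 72637 and 62635 (ratio -0.04). Rps19bp1 had 856 and 581 UMIs and a ratio of -0.39 (-0.54 to -0.23). Rps28 no longer departed without the top maturation band, and Rps19bp1 no longer departed without that band or with the 3 cell cycle phases given equal weight.

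Below those came a run of abundant structural genes, named here after their values were seen. Rps2, which encodes a protein at the mRNA entry channel of the small subunit, was at 5737 Renilla and 4574 Jumonji CPM, a ratio of -0.33 (-0.34 to -0.31). Rpl14 had -0.30, Rpl12 and Rpl24 -0.28 each and Rpl8 -0.25. At the other end Rpl23a and Rpl37 had 0.25 each, Rpl39, which lines the exit tunnel, had 0.19 and Rpl27 had 0.18. RPL12 binds beside the stalk that recruits elongation factors, and RPL24 reaches across to the small subunit. High and low members thus occurred in both subunits.

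The paralogue pairs did not share 1 pattern. Rpl22l1 was at 0.12 and Rpl22 at -0.07, Rpl36al at -0.20 and Rpl36a at -0.06, and Rpl7l1, a Rpl7-like gene whose protein is found in large-subunit precursors, at -0.17 and Rpl7 at -0.01. For the genes whose partners were hardly detected, Rpl39 was at 0.19, Rpl10 at 0.03, Rpl3 at -0.05 and Rps4x at -0.10. Rpl3l, known from striated muscle, had 9 and 15 UMIs, Rpl10l, known from testis, had 0 and 1, and Rpl39l had 0 in both, at or near the floor of 3 counts. Rpl7a was at -0.08.

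Members with a role outside or at the edge of the ribosome stayed near the median. The 5S particle genes Rpl5 and Rpl11, whose proteins bind MDM2 when assembly fails, were at -0.13 and -0.12, and Rpl23, another MDM2 binder, at 0.03. Rps6, the substrate of the S6 kinases, was at -0.12. Rps19, the gene most often damaged in Diamond-Blackfan anaemia, was at 0.04. Rps27a, which encodes a fusion of ubiquitin and a ribosomal protein, was at -0.06, and Rps3, which also acts in DNA repair, at 0.03. The genes often discussed in translation of selected mRNAs, Rpl38, Rps25 and Rpl10a, were at 0.06, 0.04 and -0.14. None of these 10 members was past the size threshold, but 77 of all 80 members were inside it, so this does not set them apart. Among all genes 20.6% were past it on the high side and 24.5% on the low side.

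Cytosolic ribosomal protein genes that the symbol rule misses gave like values. Gnb2l1, which encodes RACK1, was at -0.22, the stalk genes Rplp1, Rplp0 and Rplp2 were at -0.19, -0.08 and 0.12, Rpsa was at -0.15 and Fau at 0.04. None of those named passed the size threshold, where 20.6% of all genes did on the high side and 24.5% on the low side.

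The copies named -ps, which the rule leaves out, lay higher. Of the 13 with at least 50 UMIs, 10 were above 0, and their median was 0.18, with 43680 Renilla and 46985 Jumonji UMIs in all. By size, 4 of 13 were at least 25% higher and 1 at least 20% lower, where 20.6% and 24.5% of all genes were. Rps18-ps3 was at 0.50 beside -0.12 for Rps18, Rpl9-ps6 at 0.49 beside 0.03 for Rpl9, Rpl7a-ps5 at 0.44 beside -0.08 for Rpl7a, Rpl23a-ps3 at 0.36 beside 0.25 for Rpl23a and Rpl13-ps3 at 0.29 beside -0.19 for Rpl13. The split of reads between a gene and such a copy is uncertain for all of them.

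Ratios varied with the length of the protein. Lengths are those of the longest annotated coding sequence of each gene. Over the 79 members with one, Spearman's rho between coding length and ratio was -0.47, and over 9574 other genes it was -0.10. These are descriptions across genes of the same 2 libraries, and genes are not independent replicates. The 26 shortest members (138 to 399 nucleotides) had a median ratio of 0.05 with 18 of 26 above 0, and the 26 longest (582 to 1257 nucleotides) a median of -0.12 with 4 of 26 above 0. Rps28 (207 nucleotides), Rps27 (252), Rpl37 (291) and Rpl39 (153) are among the short members with high ratios, and Rps2 (906), Rpl8 (771) and Rpl14 (651) among the long ones with low ratios. Rpl41, the shortest at 138 nucleotides, was at -0.01, and Rps3a1 (792) at 0.10, so single genes left the trend. GC content of the coding sequence also went with the ratio (rho -0.34 over 79 members, -0.03 over other genes). The parts of length and GC in the ratios were not tested.

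**Figure D2:**
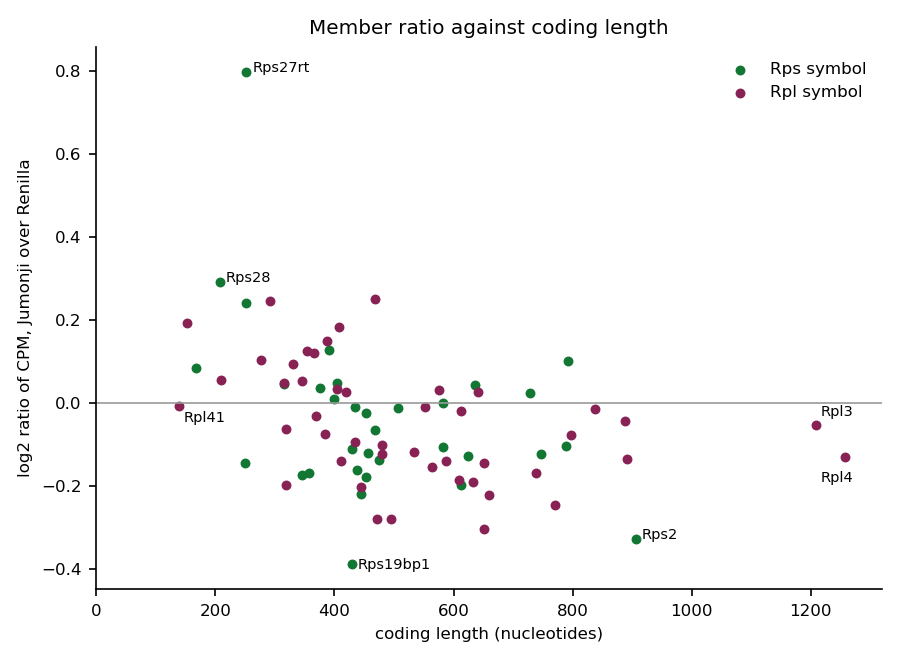
Log2 ratio of CPM, Jumonji over Renilla, against coding length in nucleotides for the 79 members with an annotated coding sequence; green points are Rps symbols and purple points Rpl symbols. Short members lie mostly above 0 (median 0.05 for the 26 shortest) and long members mostly below (median -0.12 for the 26 longest).

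The starts and promoters of some of the members with the lowest and highest ratios are shown because the pyrimidine run at the start is the feature the family is known for. Each line holds 30 bases of RefSeq sequence on GRCm38.p6, 15 on either side of the annotated start, with the run in capitals. A run is a C followed by at least 5 more pyrimidines that begins within 10 bases of the start.
Rps2 (chr17:24720048-24720077, plus strand): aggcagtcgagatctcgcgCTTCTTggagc
Rpl14 (chr9:120571502-120571531, plus strand): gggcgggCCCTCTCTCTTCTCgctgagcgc
Rpl12 (chr2:32961697-32961726, plus strand): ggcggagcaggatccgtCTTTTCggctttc
Rps27 (chr3:90213634-90213663, minus strand): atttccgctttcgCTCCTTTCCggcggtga
Rps27rt (chr9:114982725-114982754, minus strand): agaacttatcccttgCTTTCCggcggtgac
Rps28 (chr17:33824548-33824577, minus strand): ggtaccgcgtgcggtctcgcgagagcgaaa
Rps19bp1 (chr15:80264292-80264321, minus strand): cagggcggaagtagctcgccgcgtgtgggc
Of the 60 members matched to the RefSeq promoter table, 33 (55.0%) held such a run, against 21.1% of all 27025 genes in the table. The run was sought only near the annotated RefSeq start, and whether the mRNAs begin there was not tested. The Rps2 window, for example, lies inside the GENCODE gene, which spans chr17:24718116-24721929. A window without a run, as for Rps28, therefore does not show that the mRNA lacks a TOP motif. Members with a run had a median ratio of -0.08 and members without one -0.02. Of members near the ends of the range that are not printed, Rpl24 (-0.28) and Rpl37 (0.25) had no run in the window, while Rpl39 (0.19) had a run there. The window used for other motifs spans 250 bases before to 50 after the start. In it the ETS motif CCGGAAG occurred on either strand, as for all motifs here, in 38.3% of members and 9.93% of all genes, the SP1 motif GGGCGG in 61.7% and 38.2%, the YY1 motif AAGATGGC in 10.0% and 3.19%, the TATA motif TATAAA in 10.0% and 15.7%, and the E-box CACGTG, which MYC can bind, in 10.0% and 8.09%. Median ratios were -0.02 with the ETS motif and -0.08 without it. The 250 bases before the start of Rps2, the structural gene with the lowest ratio, are printed with the matches to TATA, ETS and SP1 letters in capitals.
Rps2 (chr17:24719813-24720062, plus strand): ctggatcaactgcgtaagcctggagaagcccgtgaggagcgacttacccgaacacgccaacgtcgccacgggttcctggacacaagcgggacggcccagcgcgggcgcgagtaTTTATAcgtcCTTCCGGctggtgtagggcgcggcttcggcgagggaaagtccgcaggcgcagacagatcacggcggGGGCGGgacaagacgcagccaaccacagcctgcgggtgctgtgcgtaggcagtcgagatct

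Across the cell cycle the share ran in the same order in both libraries. Phases came from scores of S and G2/M genes after each cell was thinned to 5000 UMIs, and neither score holds a ribosomal protein gene. The share was highest in cells called G1 (34.1% of UMIs in 92 Renilla cells, 32.3% in 193 Jumonji cells), lower in S (32.3% in 250 and 30.9% in 179 cells) and lowest in G2/M (31.6% in 263 and 29.9% in 197 cells). G1 over S gave a log2 ratio of 0.08 (0.077 to 0.085) for Renilla, with 70 of 80 members higher, and 0.06 (0.059 to 0.066) for Jumonji, with 57 of 80 higher. G2/M over S gave -0.03 with 71 of 80 members lower and -0.04 with 68 of 80 lower. The median gene, Renilla then Jumonji, was at -0.08 and -0.08 in G1 over S and at 0.04 and 0.02 in G2/M over S. In every phase the Jumonji share was below the Renilla share, with log2 ratios of -0.08 in G1, -0.06 in S and -0.08 in G2/M. More of the Jumonji cells were called G1 (33.9%, interval 30.03% to 38.0%, against 15.2%, interval 12.4% to 18.3%), and cells in G1 had fewer UMIs in all (medians 15604 for Jumonji and 21236 for Renilla).

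The member lowest in G1 was Rps19bp1 in both libraries, followed among Jumonji cells by Rpl7l1, and neither is part of the mature ribosome. For Renilla, Rpl7l1 was at 0.01 (-0.15 to 0.17) in G1 over S. Among Renilla cells Rps19bp1 had 58.2 CPM in S and 43.9 in G1, a log2 ratio of -0.41 (-0.77 to -0.06). It was the 1 member at least 20% lower, where 27.2% of genes were, and the 1 departing below the median member, where 18.8% of genes did. Among Jumonji cells Rps19bp1 had 49.98 CPM in S and 29.6 in G1 (-0.76, -1.12 to -0.40) and Rpl7l1 had 208 and 155 CPM (-0.42, -0.58 to -0.26). These were the 2 members at least 20% lower, where 31.3% of genes were, and the 2 departing below, where 25.1% of genes did. Between G2/M and S no member passed the size threshold. There 17.2% of genes were past it on the high side and 11.9% on the low side among Renilla cells, and 17.4% and 14.2% among Jumonji cells.

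**Figure D3:**
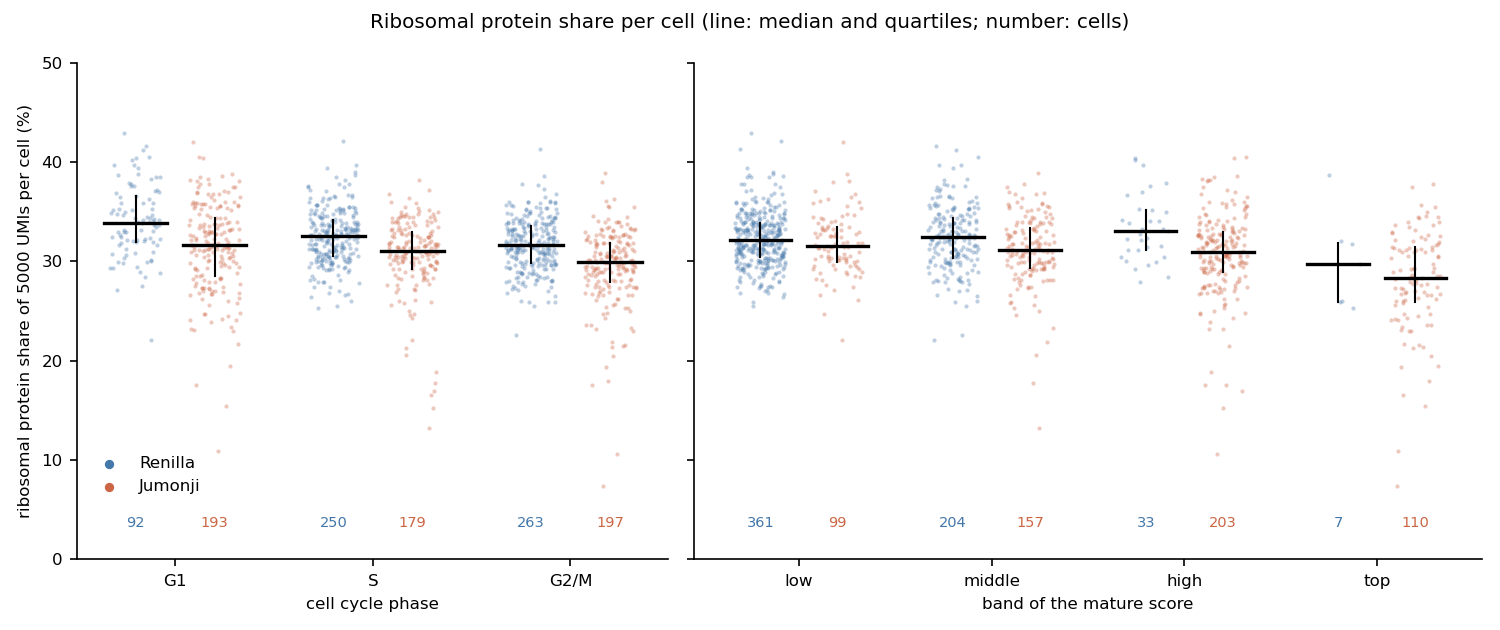
Ribosomal protein share of each cell's 5000 thinned UMIs in percent, by cell cycle phase (left) and by band of the mature score (right), with Renilla cells in blue and Jumonji cells in orange; thick lines are medians, thin lines span the quartiles and the numbers count cells. Bands are named low, middle, high and top, and medians are lower in G2/M than in G1 in both libraries, and nearly all cells under 25% are Jumonji cells (48 against 2).

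Along the maturation score the share was nearly level in the lower ranges and lowest at the top. The score sums log2(1 + thinned UMIs) over 7 monocyte and 7 neutrophil genes such as Lyz2, Csf1r and S100a8. Bands were set on the cells of both libraries together: a low, a middle and a high band, and above them a top band of about the highest 10% of cells. A band is a range of the score, not a cell type. For Jumonji the members took 31.7% of UMIs in the low band (99 cells), 31.2% in the middle (157 cells), 30.9% in the high (203 cells) and 28.4% in the top band (110 cells). The top over the low band was -0.16 (-0.161 to -0.151), with 70 of 80 members lower. For Renilla the bands gave 32.1%, 32.3%, 33.1% and 29.8% with 361, 204, 33 and 7 cells, so that the top band rests on 7 cells. Its ratio to the low band was -0.10 (-0.120 to -0.090), with 62 of 80 members lower. For Renilla the median gene was at -0.16 and the median member at -0.11. For Jumonji they were at -0.08 and -0.17. The summed ratios were smaller with states called at 10000 UMIs (-0.045 for Renilla, -0.121 for Jumonji). They were also smaller with the monocyte genes alone (-0.011 and -0.092) and with the neutrophil genes alone (-0.046 and -0.105). The Renilla top band then held 4 and 14 cells. The top band was lower than the low band in each phase of the Jumonji cells, at 29.5% against 33.8% in G1, 28.9% against 31.1% in S and 26.8% against 31.5% in G2/M. Top-band Jumonji cells also had fewer UMIs (median 14185 against 27874), and the part of depth was not tested. Across single cells Spearman's rho between share and mature score was 0.03 over 605 Renilla cells and -0.24 over 569 Jumonji cells, a description of cells that share a library.

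Within a band the libraries were closer at the low end. Jumonji over Renilla was -0.02 (-0.021 to -0.014) in the low band, -0.05 in the middle, -0.10 in the high and -0.07 in the top band, where 7 Renilla cells were compared. In the low band 43 of 80 members were lower for Jumonji and 37 higher. The median member was at -0.01 there and the median gene at -0.04.

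A small set of members had the largest differences at the top of the score. Among Jumonji cells 15 of 80 members were at least 20% lower there, where 34.1% of genes were, and 5 departed below the median member, where 13.8% of genes did. Rps19bp1 had 64.1 CPM in the low band and 26.5 in the top band (log2 ratio -1.27, -1.78 to -0.79) and Rpl7l1 259 and 113 CPM (-1.20, -1.44 to -0.97). Among the structural genes Rps2 had 5261 and 3304 CPM (-0.67, -0.72 to -0.63), Rpl27a 4402 and 3104 CPM (-0.50) and Rpl14 4640 and 3289 CPM (-0.50). Among Renilla cells 16 of 79 members tested were at least 20% lower, where 38.5% of genes were. Rpl14 was at -0.53 (-0.66 to -0.39) and Rps21 at -0.81 (-1.16 to -0.48), and Rpl36al, Rpl41, Rps20 and Rps26 also departed below, 6 of 79 where 13.1% of genes did. Rps3a1 was the 1 that departed above, where 13.5% of genes did. Spearman's rho between the libraries over the 80 members was 0.69 for top over low band, a description across genes of the same 2 libraries.

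**Figure D4:**
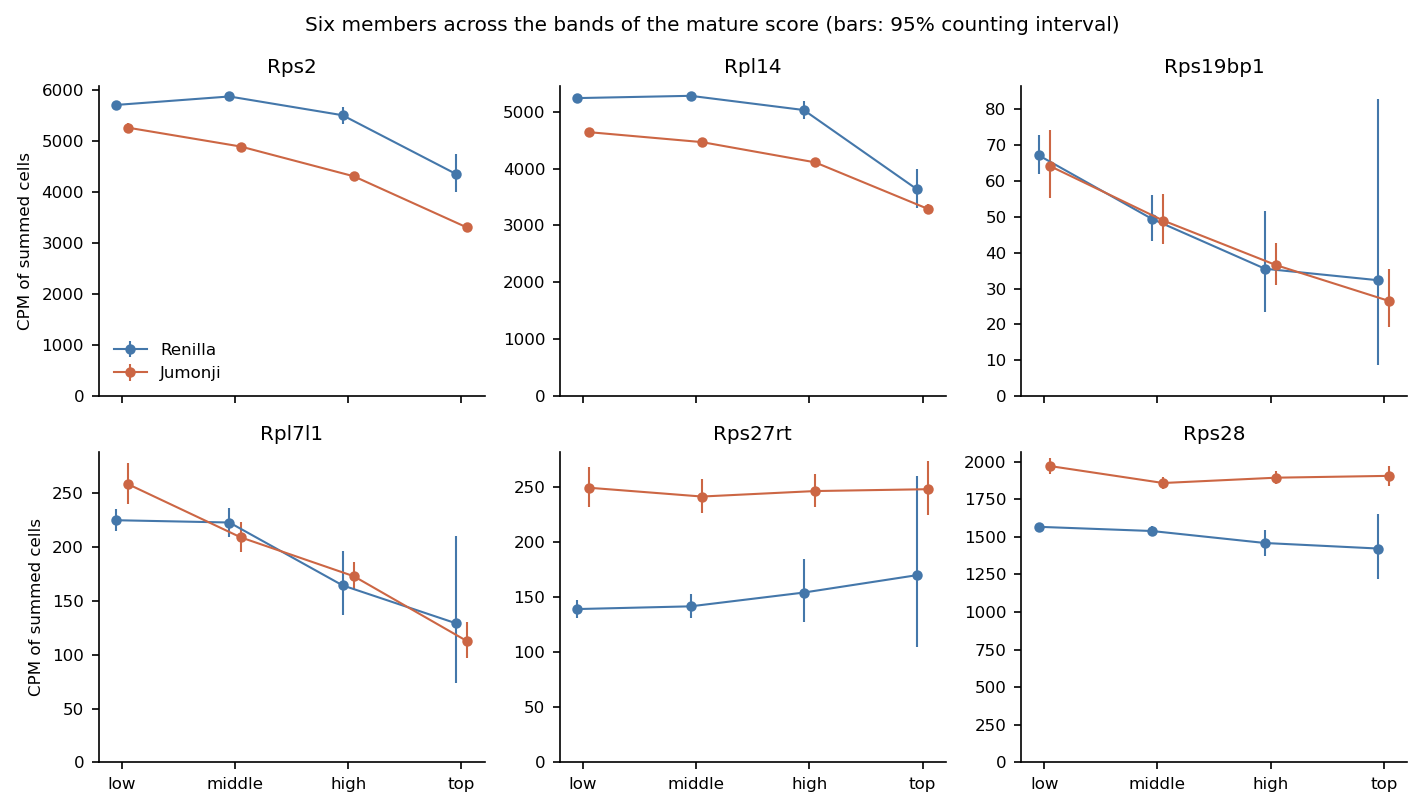
CPM of the summed cells in each band of the mature score for 6 members, with Renilla in blue and Jumonji in orange; bars are 95% counting intervals and the axes start at 0. Rps2, Rpl14, Rps19bp1 and Rpl7l1 are lower in the top than in the low band in both libraries, while the Jumonji values of Rps27rt and Rps28 lie above the Renilla values in every band. The Renilla top band holds 7 cells, and Rps19bp1 was below the limit of 10 expected UMIs there.

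Rps27rt and Rps28 differed more between the libraries than between the bands. Rps27rt was between 240.9 and 248.9 CPM in all 4 Jumonji bands and between 139 and 170 CPM in all 4 Renilla bands (top over low band 0.29, -0.41 to 0.91, from 21 UMIs in the top band), and its ratio between the libraries ran from 0.55 to 0.90 over the 3 phases and 4 bands. For Rps28 the Jumonji bands lay between 1858 and 1971 CPM and the Renilla bands between 1422 and 1567 CPM, with ratios from 0.26 to 0.42 in the 7 states. Rps2 was lower for Jumonji in all 7 states (-0.41 to -0.12), as was Rpl14 (-0.35 to -0.14). Rps19bp1 was not: within the low band it had 67.1 Renilla and 64.1 Jumonji CPM, and its ratio ran from -0.57 to 0.04 over the states. Of the 80 members, 34 were lower and 18 higher in all 7 states, and 28 had either sign. The states share cells, so these counts are not 7 separate checks, and the same count was not made for all genes.

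The primary granule score, the sum over Mpo, Ctsg, Elane, Prtn3 and Ms4a3, went with a lower share. Low, middle and high ranges held about equal numbers of cells over both libraries. For Renilla the members took 35.7% of UMIs in the low range (43 cells) and 31.5% in the high range (356 cells), a log2 ratio of -0.18 with 71 of 80 members lower. For Jumonji they took 31.3% (358 cells) and 29.6% (35 cells), a ratio of -0.08 with 57 of 80 lower. The ranges also differed in phase: 44.2% of low-range and 13.8% of high-range Renilla cells were called G1, and 41.3% and 20% of Jumonji cells. The part of phase in these ratios was not tested. Across single cells Spearman's rho between share and granule score was -0.34 over 605 Renilla cells and -0.15 over 569 Jumonji cells, a description of cells that share a library. The members that departed did so upward, 5 in each library, where 32% of genes did for Renilla and 20.6% for Jumonji. They were Rps19bp1 (0.85 for Renilla and 0.69 for Jumonji), Rpl7l1 (0.59 and 0.62), Rps2 (0.20 and 0.30) and Rps21 (0.15 and 0.24) in both, with Rps27l (0.30) for Renilla and Rps26 (0.38) for Jumonji. The median gene was itself at 0.17 for Renilla and 0.05 for Jumonji, with Rps2 and Rps21 near it among Renilla cells. Rps2, Rpl7l1 and Rps19bp1 were higher where granule genes were high and lower where mature genes were high. For Renilla the mature side rests on the 7 cells of the top band, where Rps19bp1 did not reach the limit of 10 expected UMIs.

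The machinery that makes and uses ribosomes had lower medians for Jumonji than the ribosomal protein genes. Of the 58 ribosome biogenesis genes measured, 44 were at least 20% lower and 0 at least 25% higher (24.5% and 20.6% of all genes), with a median of -0.43. The lowest were Polr1b, a subunit of RNA polymerase I, at -1.30 (208 and 75 UMIs) and Heatr1, a factor of pre-rRNA transcription, at -0.91 (135 and 64 UMIs). The highest were Ddx18 at 0.10 and Ltv1 at -0.11. Translation initiation genes had a median of -0.17, with 9 of 31 lower and 1 higher by that size (Eif1a -0.71, Eif2s3x -0.61, Eif3j1 0.09, Eif4ebp2 0.41). Elongation factors and other TOP mRNAs had a median of -0.16, with 5 of 18 lower and 0 higher (Eef1g -0.45, Npm1 -0.41, Tpt1 0.04, Eif3h 0.13). Mitochondrial ribosomal proteins had a median of -0.25, with 28 of 76 lower and 2 higher (Mrps34 -1.13, Mrps6 -0.76, Mrps31 0.39, Mrpl52 0.48). The MYC and mTOR list had a median of -0.21, with 7 of 17 lower and 2 higher. Larp1, which encodes the TOP mRNA binding protein, was at -0.69, Larp4 at -0.46, and Mxd4 and Mxd1, which encode MYC antagonists, at 0.56 and 0.89.

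Between the top and low bands of the Jumonji cells the medians lay further apart. All 57 biogenesis genes tested were lower in the top band, with a median of -1.22 and 53 at least 20% lower (34.1% of genes were), beside a median of -0.17 over the 80 members. Mitochondrial ribosomal proteins had a median of -0.60 there and initiation genes -0.59. Within the low band the biogenesis median between the libraries was -0.11, with 11 of 58 at least 20% lower and 1 at least 25% higher, where 21.8% and 15.1% of genes were. In the high range of the granule score biogenesis genes were higher (medians 0.55 over 56 genes for Renilla and 0.63 over 54 for Jumonji), where the member medians were -0.18 and -0.09. Elongation factors and other TOP mRNAs lay nearer the members, with -0.20 in the top over low band of Jumonji cells and -0.18 in the Renilla granule comparison.

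A search over 14 sums, each of a library and a phase or band, looked for genes whose CPM ran most like the summed member share. The closest were Eef1b2 (Spearman's rho 0.96), an elongation factor subunit, Eif2a and Rplp0 (0.92 each), Echs1 (0.90), Immp1l and Srgn (0.88 each), AI662270 and Psmb1 (0.86 each), and Mrpl24 and Ufc1 (0.85 each), out of 1799 genes with at least 2000 UMIs. The sums share cells and libraries.

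Some Jumonji cells held far fewer ribosomal protein UMIs than the rest. Of 569 Jumonji cells with at least 5000 UMIs, 48 had a share under 25% (8.44%, interval 6.29% to 11.03%), against 2 of 605 Renilla cells (0.331%, interval 0.0401% to 1.19%). Under 20% there were 15 Jumonji cells and 0 of 605 Renilla cells, where the exact interval allows a share of up to 0.608%. Of the 48 cells, 25 were in the top band of the mature score and 17 had over 5% mitochondrial UMIs, a level that 30 of all 569 Jumonji cells passed. Among Renilla cells 61 passed it, and 1 of them had a share under 25%. The barcodes left out for their mitochondrial share went further in the same direction, with median shares of 9.29% in 77 Jumonji and 21.6% in 43 Renilla barcodes. The median mitochondrial share of the 48 cells was 2.79%, beside 2.64% for all kept Jumonji cells, so a high value marked only some of them. The parts of maturation and mitochondrial share were not tested. Without the 48 and 2 cells, a set chosen on the share itself, the ratio between the libraries was -0.04.

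At equal depth, members varied more from cell to cell in the Jumonji library. The Fano factor (variance over mean of the thinned UMIs, 1 for counting noise) had a median of 1.32 over the 80 members in Renilla cells and 1.64 in Jumonji cells. It was not set beside that of other genes, so the difference cannot be read as a trait of the members. Rps2 had the highest value, 3.43 in Jumonji cells and 1.73 in Renilla cells, with fewer than 4 UMIs in 14 Jumonji cells and in 0 Renilla cells around medians of 21 and 28. Among Renilla cells Rps4x had the highest Fano factor, 2.15. Next came Rpl6 in the Jumonji library at 3.28, where 1 cell held 170 UMIs and the next 46 (1.76 without that cell), and Rpl21 at 2.56, where 1 cell held 123 and the next 37 (1.53 without it).

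It was the same cell, and its neighbours on the chromosome were raised with them. Each member in each cell was set against the UMIs its library mean would give at that cell's ribosomal total, wherever at least 20 were expected. Of 45073 such values in Renilla cells 0 were at least 3-fold above, and of 41194 in Jumonji cells 2 were: Rpl6 and Rpl21, both on chromosome 5, in a cell of 14805 UMIs called G1 and not marked as a doublet (cell A). Against the library mean of all UMIs, that cell had 456 Rpl6 UMIs where 72.4 were expected (6.30-fold) and 370 Rpl21 UMIs where 53.8 were expected (6.87-fold). Rpl9 (59 against 70.6) and Rpl5 (32 against 28.4), which lie nearer the start of chromosome 5, were not raised. Genes with at least 2 expected UMIs were then read in order along the chromosome. From Rpl6 (chr5:121204481-121209241) to the last gene, 34 of 35 were at least 2-fold above, 2166 UMIs against 350 (6.19-fold), the exception being Ran at 1.78. Before it 2 of 29 were, and Pebp1, the last before Rpl6, was at 0.94. Chromosome 5 as a whole was at 3.64 times its expected UMIs, where the other 574 Jumonji cells ran from 0.713 to 1.42 and the other 19 chromosomes of cell A from 0.667 to 0.955.

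A second Jumonji cell, of 23229 UMIs and also called G1 (cell B), was low for the X chromosome. Its 4 X-linked members were all below expectation: Rpl10 had 39 UMIs against 121, Rpl36a 18 against 54.6, Rpl39 51 against 80.9 and Rps4x 92 against 137. Chromosome X as a whole was at 0.356 of its expected UMIs, where the other 574 Jumonji cells ran from 0.697 to 1.76. Of 39 other X-linked genes with at least 2 expected UMIs, 29 had 0, among them Cox7b (8.44 expected) and Ube2a (7.25 expected), and all 39 were below expectation. The members kept 0.508 of their expected UMIs and the other genes 0.317. Xist, the RNA that coats the inactive X, had 28 UMIs against 38.4, and Tmsb4x had 105 against 240. These genes held most of the 152 UMIs of the other genes, and most of the rest lay below 0.317. These 2 cells were singled out after their values were seen, because at least 2 members on 1 chromosome were 3-fold off in the same direction. A further Jumonji cell met this with Rpl4 and Rpl14 on chromosome 9, but there the chromosome as a whole was at 0.844, inside the range of the other cells (0.589 to 1.23).

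**Figure D5:**
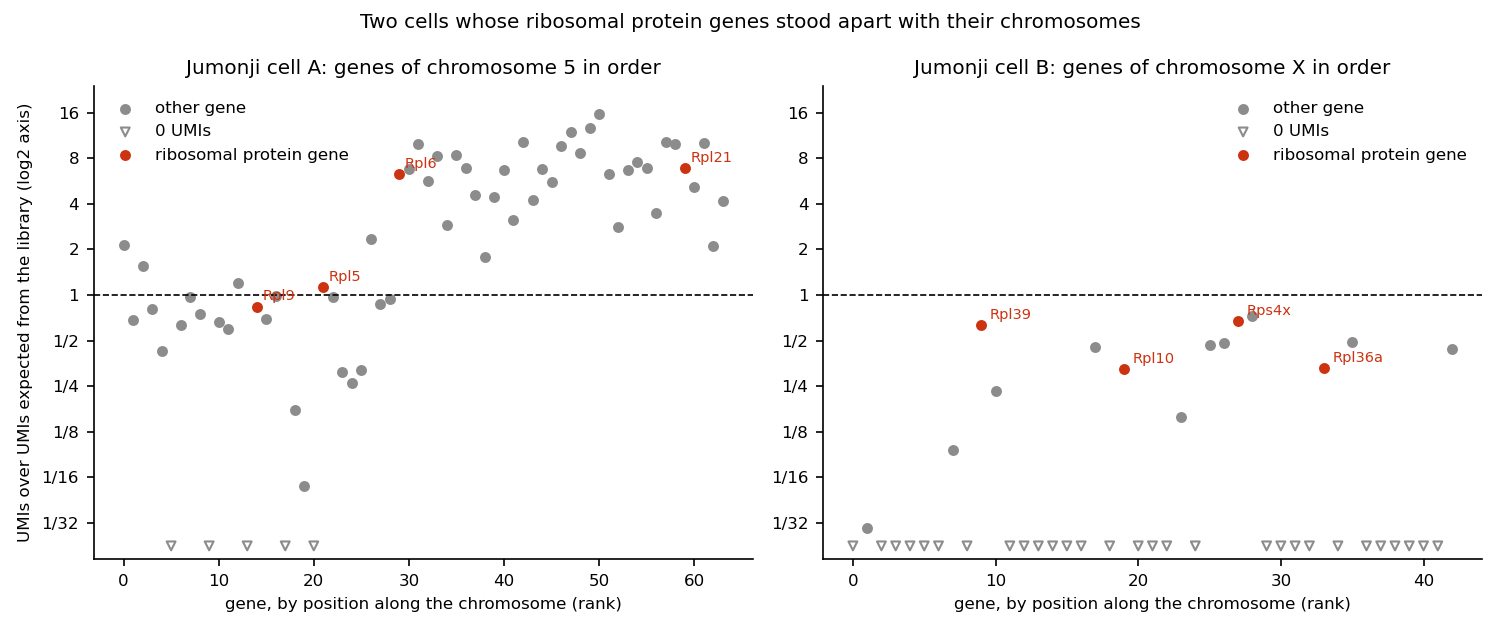
UMIs over expected UMIs (log2 axis) for genes with at least 2 expected UMIs, in order along chromosome 5 in cell A (left) and along chromosome X in cell B (right); red points are ribosomal protein genes, grey points other genes, and open triangles genes with 0 UMIs. In cell A the genes from Rpl6 onward lie about 6-fold up (34 of 35 above 2-fold), and in cell B all genes lie below 1.

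Values at least 3-fold below expectation were more common and fell on few genes. There were 21 in 19 Renilla cells and 63 in 50 Jumonji cells. Rps2 gave 28 of the Jumonji values and 2 of the Renilla values, and Rps27l gave 15 and 12. Rpl3 followed with 5 Jumonji cells and Rpl22l1 with 3 and 2. Neither these values nor those above expectation were counted for other genes. They therefore cannot be read as a trait of the members.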

How the data were processed

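The deposited values are raw UMI counts per gene and cell barcode, 1 matrix per library. The kit was 10x Genomics Chromium 3′ (v2) per the labels' protocols. It counts 3′ ends, so no result rests on levels compared between genes. The authors used Cell Ranger 1.3.1 and mm10, per the submitters' processing notes. The annotation release and the rule for calling cells are not stated in the sources used here. A barcode was kept when it had at least 500 genes and no more than 10% mitochondrial UMIs. Scrublet marked 9 Renilla and 5 Jumonji cells (1.48% and 0.870%), which were kept.

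Counts were summed over cells and divided by the total (CPM), with exact conditional binomial intervals for ratios, Clopper-Pearson intervals for shares, and a floor of 3 counts for a 0. UMIs may still share amplification, so intervals cover counting error only. States were called with scanpy 1.11.5 on cells thinned to 5000 UMIs, which left out 3 Renilla and 6 Jumonji cells. Levels in states use the full counts. Departing means at least 25% above or 20% below the median member with an interval clear of it. Shares of genes called use genes with at least 50 UMIs and, between states, at least 10 expected in the smaller group, a limit chosen after seeing the data. Between 1 and 154 cells of a library lay within 0.5 of a band limit. The ratio and its interval were tested on simulated data: of 9964 genes, 95.5% of intervals held the true value (72 of 80 for the members), and 87 of 100 genes changed by 1.5-fold and 99 of 100 changed by 2-fold passed the size threshold.

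Coordinates and coding lengths come from GENCODE M21 and promoters from RefSeq (GRCm38.p6, 60 of 80 members matched). Named genes were the departing members, the paralogues, 10 role members, the extremes of each list and the 10 genes most like the summed share. Members, lists and rules were chosen with earlier results of these data known. Some single genes are not reported here.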

Additional observations from a re-analysis of the deposited data

Results flagged for a closer look

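Between the libraries, 65 of 80 members had the same sign in G1 over S, 69 in G2/M over S, 64 in the top over the low mature band and 66 in the high over the low granule range. Of the members that departed in at least 1 library, 2 had opposite signs, and the difference was not tested in either case. Rpl7l1 in G1 over S had a log2 ratio of -0.42 (-0.58 to -0.26) among Jumonji cells and 0.01 (-0.15 to 0.17) among Renilla cells. Rps3a1 in the top over the low band of the mature score had -0.045 (-0.08 to -0.01) among Jumonji cells and 0.27 (0.17 to 0.37) among Renilla cells, where the top band holds 7 cells.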

How the results depend on the processing

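No paired analysis was possible because each group had 1 library. The log2 ratio of the summed share, Jumonji over Renilla, was -0.06 in the report. It was -0.083 over all deposited barcodes, -0.052 with at most 5% mitochondrial UMIs, -0.087 with cells thinned to 5000 UMIs, -0.108 relative to the total without members and mitochondrially encoded genes, -0.0047 with median-of-ratios scaling, -0.047 without the top band of the mature score, -0.074 with equal weight of the 3 phases and -0.039 without cells under a 25% share. The last alternative was chosen after seeing the data and selects on the share itself. The median member was at -0.102 without members in the total, 0.0015 with median-of-ratios scaling (a change of sign), -0.030 without the top band, -0.080 with equal phases and -0.032 without cells under 25%.

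Members at least 25% higher numbered 2 with thinned cells, 3 with median-of-ratios scaling and 2 with a minimum of 1 UMI, against 1. Members at least 20% lower numbered 5 with thinned cells, 5 without members in the total, 1 with median-of-ratios scaling, 0 without the top band, 1 without cells under 25% and 0 at 1.5-fold, against 2. Members departing above numbered 1 at 1.5-fold, against 3, and members departing below 2 with thinned cells and 0 without the top band, with equal phases or at 1.5-fold, against 1.

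With states called at 10000 UMIs the ratios, Renilla then Jumonji, were 0.124 and 0.111 for G1 over S, -0.036 and -0.041 for G2/M over S, -0.045 and -0.121 for the top over low mature band and -0.218 and -0.098 for the high over low granule range. Relative to the total without members they were 0.119 and 0.096, -0.052 and -0.068, -0.169 and -0.228, and -0.271 and -0.122. With at most 5% mitochondrial UMIs G2/M over S was -0.035 for Renilla, and for Jumonji the mature ratio was -0.140 and the granule ratio -0.093. The mature ratios were -0.011 and -0.092 with the monocyte genes alone, -0.046 and -0.105 with the neutrophil genes alone, and -0.056 (1 top-band cell) and -0.194 in G1 cells alone. The Renilla top band held 4 cells with the monocyte genes and 14 with the neutrophil genes, so its values rest on few cells. Departing below were 11 Renilla members with monocyte genes, and 3 Renilla and 2 Jumonji members with neutrophil genes. Departing above were 1 Jumonji member with monocyte genes, and 5 Renilla and 1 Jumonji members in G1 cells. The causes were not tested. Under 9 settings, 22 members had a ratio of the opposite sign at least once, all inside the size threshold in the report. With 1 library per group, depth limits only the counting error, and the spread between cultures is unknown.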
